A study of Mus musculus with 71 samples.

Results

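The 7 genes described here encode the receptors for stress hormones and the corticotropin-releasing hormone (CRH) system of the mouse brain. They were chosen by gene symbol, with earlier results of these data known, and all 7 were found among the 37681 genes listed in the study's expression tables. Nr3c1 encodes the glucocorticoid receptor and Nr3c2 the mineralocorticoid receptor, nuclear receptors that bind corticosterone and then act on transcription. Hsd11b1 encodes 11-beta-hydroxysteroid dehydrogenase type 1, an enzyme that regenerates active corticosterone inside cells. Crh encodes the peptide CRH, Crhr1 and Crhr2 its G protein-coupled receptors, and Crhbp a secreted protein that binds CRH.

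Corticosterone is released by the adrenal gland under the control of CRH neurons of the hypothalamus. The mineralocorticoid receptor binds it with the higher affinity, and the glucocorticoid receptor is engaged as the hormone rises during stress or across the day. CRH is also made outside the hypothalamus, by interneurons of the cortex and other neurons of the forebrain, where it acts as a local transmitter. The nucleus accumbens (NAc), the ventral tegmental area (VTA), which holds midbrain dopamine neurons, and the prefrontal cortex (PFC) are linked regions of the reward circuit in which stress hormones and CRH are known to act on drug-related behavior.

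RNA-seq libraries were made from micro-punches of NAc, VTA and PFC of adult wild type C57BL/6 mice, male and female, that had self-administered cocaine or saline through a jugular catheter and were then kept for 1 or 28 days of abstinence. Both treatments shared the surgery and earlier training for food pellets. There were 71 libraries in 12 groups of region, treatment and time, with 6 libraries in each group except for saline in the VTA at 28 days, which had 5. Total counts per library ranged from 20971967 to 49700932. Each library is a bulk sample of a punch, so fewer cells of a type and less RNA per cell cannot be told apart. The labels do not say that each library is a separate mouse, and p-values measure the spread between these libraries.

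On the mm9 build, Nr3c1 (ENSMUSG00000024431) lies on chromosome 18 from 39570199 to 39650955 on the minus strand. Nr3c2 (ENSMUSG00000031618), a plus-strand gene, spans 79423341 to 79768911 of chromosome 8. Hsd11b1 (ENSMUSG00000016194) lies on the minus strand of chromosome 1 from 195047824 to 195090248. Crh (ENSMUSG00000049796) is the smallest of the genes, on the minus strand of chromosome 3 from 19593401 to 19595396. Crhr1 (ENSMUSG00000018634), also on the plus strand, spans 103994169 to 104036837 of chromosome 11, and Crhr2 (ENSMUSG00000003476) on the minus strand of chromosome 6 from 55040043 to 55083010. Crhbp (ENSMUSG00000021680) lies on the minus strand of chromosome 13 from 96201326 to 96214786. All are protein-coding, and counts were taken over their exons. Exons of Hsd11b1 overlap the opposite-strand transcripts 4930570N18Rik and 1600010F14Rik, and an exon of Nr3c2 overlaps the opposite-strand Gm10649. Whether counting used strand is not given in the sources used here, so reads from these pairs cannot be told apart and both genes' levels are uncertain to that extent.

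Marker genes showed that the punches held their labelled regions, with neighbours in some. Summed over 9 markers of medium spiny neurons, the NAc libraries held 1752 to 3901 RPKM (reads scaled to transcript length and to the size of the library), and summed over 9 dopamine neuron markers the VTA libraries held 650 to 2586 RPKM. Saline library 4 of the PFC at 28 days held 1398 RPKM of the medium spiny neuron markers, against 94.3 to 150.0 in PFC libraries at 1 day. Hypothalamic neuron markers reached 100 RPKM or more in 5 of 23 VTA libraries, with 1352 RPKM in saline library 1 at 28 days. Serotonin neuron markers ranged from 1.58 to 233 RPKM among the VTA libraries at 1 day and from 0.501 to 159 RPKM at 28 days. No fit chose libraries by the serotonin neuron markers. Cortical excitatory neuron markers ranged from 5.24 to 320 RPKM among the NAc libraries at 1 day and from 5.62 to 224 RPKM at 28 days. For some results the value without such libraries is given beside the result. Other results can also depend on these libraries.

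All 7 genes were detected in every library, at levels that differed widely. Nr3c1 had the highest mean RPKM of the 7 in each region of saline mice at 28 days, and ranged from 9.13 to 26.0 RPKM over all libraries with 1789 to 5448 reads per library. Crhr2 had the lowest mean RPKM of the 7 in each of these groups. By median the order of Crh and Crhr2 turned in the VTA (0.856 and 1.23 RPKM). Crh and Crhr2 had the fewest reads. Crh had 2 to 253 reads per library and Crhr2 had 6 to 178, so that counting error alone is large for both in the libraries at the low end.

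**Figure D1:**
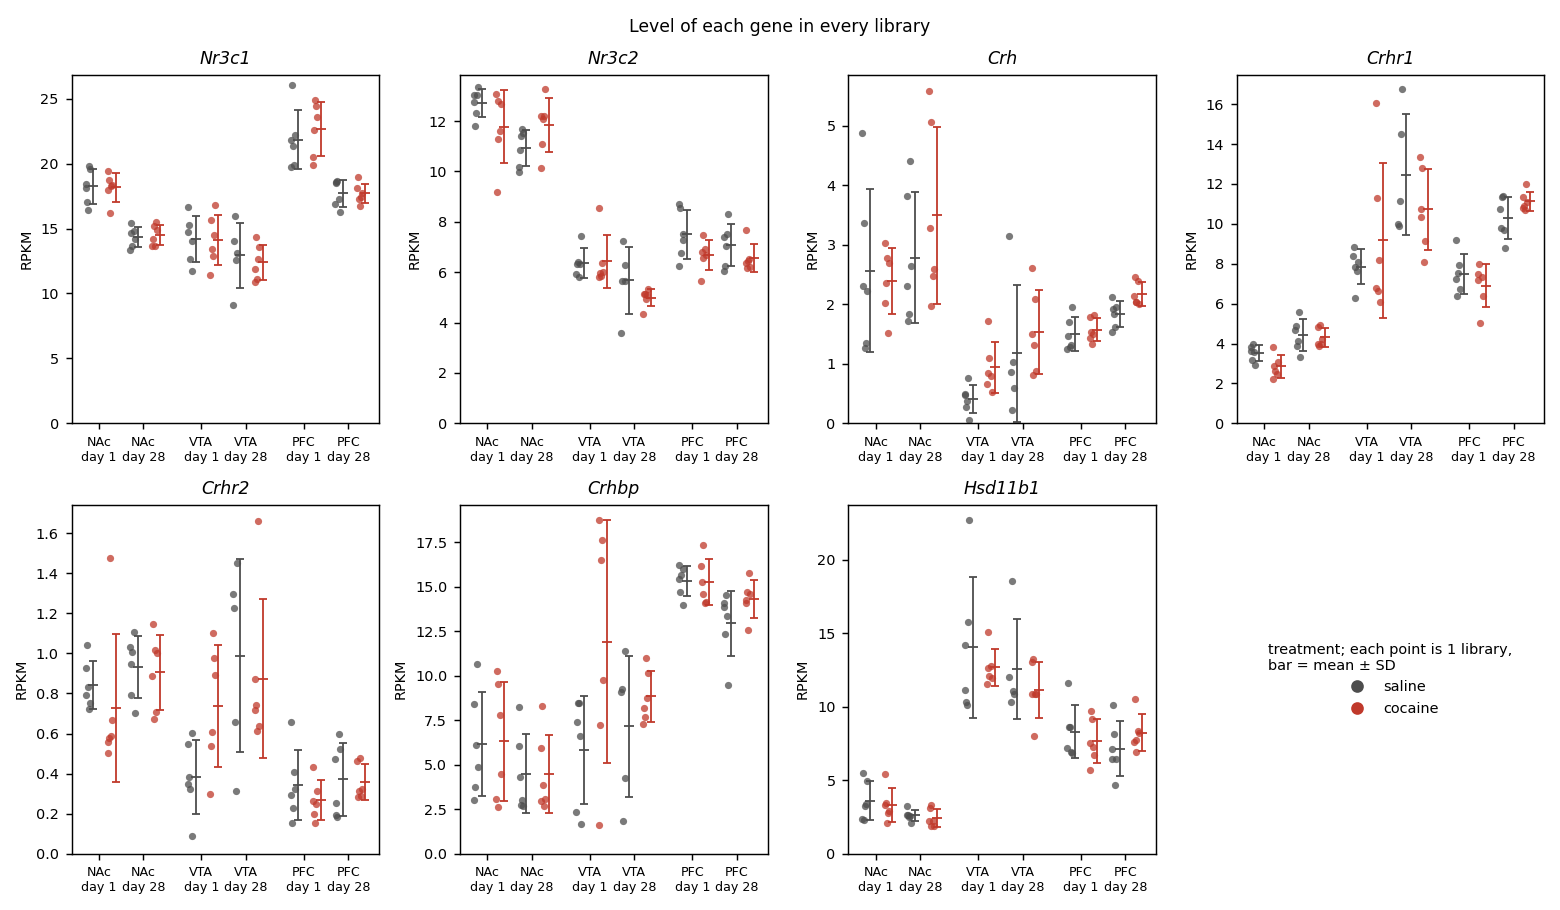
Level in RPKM (vertical axis, from 0) of each of the 7 genes in every library, with libraries grouped by region and day of abstinence along the horizontal axis and colored by treatment, and bars giving mean ± SD. Nr3c2 sits highest in the NAc, Crhr1 and Hsd11b1 sit lowest in the NAc, and Crhbp is spread over 1.59 to 18.7 RPKM in the VTA.

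The first comparison asked how the baseline levels differed between regions, using the 17 saline libraries at 28 days, whose tables all hold raw counts. With edgeR at an adjusted p under 0.05, 5 of the 7 genes differed between VTA and NAc, 6 of 7 between PFC and NAc, and 5 of 7 between VTA and PFC. Among all genes tested, 62.5%, 40.7% and 57.8% passed in the same comparisons, so the counts alone say little about these genes. The sizes were larger than usual: the median absolute log2 fold change of the 7 genes was 1.05, 1.27 and 0.67, against 0.44, 0.25 and 0.40 over the 17181 genes tested. Region and table are the same split, so differences of preparation between tables cannot be told apart from region. Whether libraries of different regions came from the same mice is not given in the sources used here.

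The glucocorticoid receptor was highest in the PFC. Nr3c1 in saline mice at 28 days was at 16.3, 17.9 and 18.6 RPKM in the PFC and at 13.3, 14.4 and 15.4 RPKM in the NAc (lowest, median and highest of 6 libraries each). In the VTA the 5 libraries were at 9.13, 12.5, 14.1, 13.1 and 16.0 RPKM. The PFC and NAc libraries did not overlap, and neither did PFC and VTA, while VTA and NAc overlapped. Nr3c1 was higher in PFC than NAc by 0.34 on the log2 scale (95% interval 0.13 to 0.55, adjusted p = 0.0104, edgeR) and lower in VTA than PFC (log2 fold change -0.60, SE 0.106, adjusted p = 0.000105, edgeR). The VTA to NAc difference was -0.25 (SE 0.105, adjusted p = 0.0441, edgeR), and the call was lost on leaving out any 1 of 8 libraries (NAc 2, PFC 2, 3 or 6, VTA 1, 2, 3 or 4), with VTA library 1, the one with the most hypothalamic markers, giving the smallest estimate (log2 fold change -0.15, adjusted p = 0.0845, edgeR). The same contrast was -0.30 among cocaine libraries at 28 days (adjusted p = 0.000149, edgeR) and -0.44 among saline libraries at 1 day (adjusted p = 0.000198, edgeR). PFC libraries also lay above NAc libraries after cocaine at both times. Among saline libraries at 1 day PFC and NAc overlapped (19.7 to 26.0 and 16.4 to 19.8 RPKM).

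The mineralocorticoid receptor followed a different order, NAc above PFC above VTA. Nr3c2 was at 9.97, 11.1 and 11.7 RPKM in the NAc, and at 6.07, 7.22 and 8.31 RPKM in the PFC (lowest, median and highest). The VTA libraries were at 3.61, 5.64, 5.65, 6.29 and 7.23 RPKM. No NAc library overlapped either other region, in either treatment or at either time. Nr3c2 was lower in VTA than NAc by a log2 fold change of -1.05 (SE 0.135, adjusted p = 2.46e-06, edgeR), and lower in PFC than NAc by -0.58 (SE 0.126, adjusted p = 0.00112, edgeR). It was lower in VTA than PFC by -0.47 (SE 0.133, adjusted p = 0.00604, edgeR), a pair whose libraries overlapped. Saline library 4 of the PFC, which held medium spiny neuron markers, had the highest Nr3c2 and the lowest Nr3c1, Crhr1 and Crhbp of its group. Without it and VTA saline library 1, the VTA to PFC difference in Nr3c2 was -0.29 (adjusted p = 0.0126, edgeR).

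Since both receptors bind the same hormone, the ratio of their transcripts within each library was taken. It measures neither receptor protein nor hormone binding. Transcript of Nr3c1 exceeded that of Nr3c2 per length in all 71 libraries. The ratio of Nr3c1 to Nr3c2 in RPKM was 1.12 to 1.47 in the 12 NAc libraries at 28 days (median 1.27), 2.08 to 2.79 in the 11 VTA libraries (median 2.48) and 1.96 to 2.98 in the 12 PFC libraries (median 2.66). The NAc therefore stood apart from the other regions at 28 days, while VTA and PFC overlapped. At 1 day the ranges were 1.33 to 1.96 in the NAc, 1.58 to 2.79 in the VTA and 2.26 to 3.61 in the PFC. Medians for cocaine and saline in the PFC at 1 day were 3.48 and 3.00, and the groups overlapped (2.92 to 3.61 against 2.26 to 3.50). No test was run on the ratio.

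**Figure D2:**
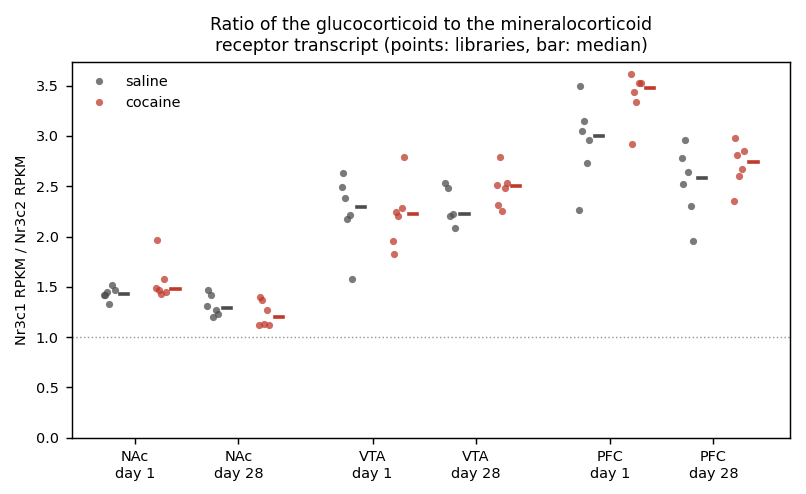
Ratio of Nr3c1 to Nr3c2 RPKM in each library (vertical axis, no unit, from 0), by region and day of abstinence along the horizontal axis, with gray points for saline, red points for cocaine and a short bar for the median of each group. All points lie above 1, and at 28 days the NAc points end at 1.47, below all VTA and PFC points.

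Hsd11b1 showed the widest regional difference of the 7 genes. It was at 2.06, 2.60 and 3.27 RPKM in the NAc and at 4.66, 6.78 and 10.1 RPKM in the PFC of saline mice at 28 days (lowest, median and highest). In the VTA the libraries were at 12.0, 11.1, 10.3, 10.9 and 18.5 RPKM. No 2 regions overlapped. Hsd11b1 was 4.47-fold higher in VTA than NAc (log2 fold change 2.16, SE 0.189, adjusted p = 2.29e-08, edgeR) and 2.81-fold higher in PFC than NAc (log2 fold change 1.49, SE 0.182, adjusted p = 4.57e-06, edgeR). The VTA exceeded the PFC by 0.67 on the log2 scale (SE 0.182, adjusted p = 0.00423, edgeR), but by 0.30 among cocaine libraries, which did not pass (adjusted p = 0.0622, edgeR). The other enzyme of this exchange, Hsd11b2, which inactivates corticosterone, failed the filter on low counts in all comparisons. H6pd, which supplies the cofactor for the Hsd11b1 reaction, gave log2 fold changes of -0.11 for VTA against NAc and -0.03 for PFC against NAc (adjusted p = 0.607 and 0.915, edgeR). H6pd was named after its values were seen.

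The ligand Crh was at a low level in all 3 regions. In saline mice at 28 days it was at 1.72, 2.47 and 4.41 RPKM in the NAc and at 1.54, 1.88 and 2.13 RPKM in the PFC (lowest, median and highest). The VTA libraries were at 3.16, 1.04, 0.856, 0.599 and 0.229 RPKM. The highest VTA value came from library 1, with 1352 RPKM of hypothalamic markers, and it was the library that made the VTA overlap the other regions. Crh was lower in VTA than NAc (log2 fold change -1.37, SE 0.427, adjusted p = 0.00983, edgeR), and without that library and PFC library 4 the difference was -2.14 (adjusted p = 3.59e-05, edgeR). The VTA to PFC difference did not pass with all libraries (log2 fold change -0.81, SE 0.426, adjusted p = 0.113, edgeR) and passed without those libraries (-1.56, adjusted p = 0.000943, edgeR). PFC against NAc gave -0.56, with a 95% interval of -1.38 to 0.26 (adjusted p = 0.277, edgeR). The other peptides that bind CRH receptors, were scarce: Ucn2 and Ucn3 failed the filter in all comparisons, and Ucn passed it only in the VTA at 1 day.

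The CRH receptors split between the regions. Crhr1, the main CRH receptor of the brain, was at 3.35, 4.40 and 5.60 RPKM in the NAc and at 8.81, 10.3 and 11.4 RPKM in the PFC (lowest, median and highest). The VTA libraries were at 10.0, 14.5, 9.89, 16.8 and 11.1 RPKM. NAc libraries lay below all libraries of both other regions in each treatment and at each time. Crhr1 was 2.63-fold higher in VTA than NAc (log2 fold change 1.39, SE 0.142, adjusted p = 1.57e-07, edgeR) and 2.41-fold higher in PFC than NAc (log2 fold change 1.27, SE 0.138, adjusted p = 1.34e-06, edgeR). VTA and PFC differed by 0.13 (95% interval -0.17 to 0.42, adjusted p = 0.454, edgeR), and the sign turned among cocaine libraries (-0.18) and among saline libraries at 1 day (-0.05).

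Crhr2, which binds urocortins as well as CRH, was the scarcest member by mean RPKM. It was at 0.703, 0.978 and 1.11 RPKM in the NAc and at 0.182, 0.364 and 0.600 RPKM in the PFC (lowest, median and highest), with no overlap. The VTA libraries were at 1.30, 0.313, 1.23, 1.45 and 0.658 RPKM, a spread that took in both other regions. Crhr2 was lower in PFC than NAc (log2 fold change -1.27, SE 0.336, adjusted p = 0.00550, edgeR), with -1.30 among cocaine libraries and -1.26 among saline libraries at 1 day. Crhr2 was higher in VTA than PFC at 28 days (log2 fold change 1.25, SE 0.347, adjusted p = 0.00500, edgeR), but the difference was 0.05 among saline libraries at 1 day (adjusted p = 0.910, edgeR). VTA against NAc was -0.02 at 28 days and -1.22 at 1 day (adjusted p = 0.966 and 0.00151, edgeR), so the place of the VTA in this order was not stable across the tables.

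Crhbp was highest in the PFC. It was at 9.48, 13.6 and 14.5 RPKM in the PFC and at 2.71, 3.66 and 8.22 RPKM in the NAc (lowest, median and highest), and the VTA libraries were at 9.09, 4.23, 9.26, 11.4 and 1.82 RPKM. PFC and NAc did not overlap, and the VTA overlapped both. It overlapped the PFC only through PFC library 4 (9.48 RPKM), which held medium spiny neuron markers. Crhbp was 2.98-fold higher in PFC than NAc (log2 fold change 1.58, SE 0.345, adjusted p = 0.00127, edgeR) and lower in VTA than PFC (log2 fold change -1.01, SE 0.358, adjusted p = 0.0223, edgeR). The second call was lost without VTA saline library 2 (log2 fold change -0.88, adjusted p = 0.0567, edgeR). VTA against NAc gave 0.57 (SE 0.356, adjusted p = 0.174, edgeR), 0.91 among cocaine libraries (adjusted p = 0.000665, edgeR) and -0.15 among saline libraries at 1 day. Without VTA saline library 5 it was 0.83 (adjusted p = 0.0209, edgeR).

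**Figure D3:**
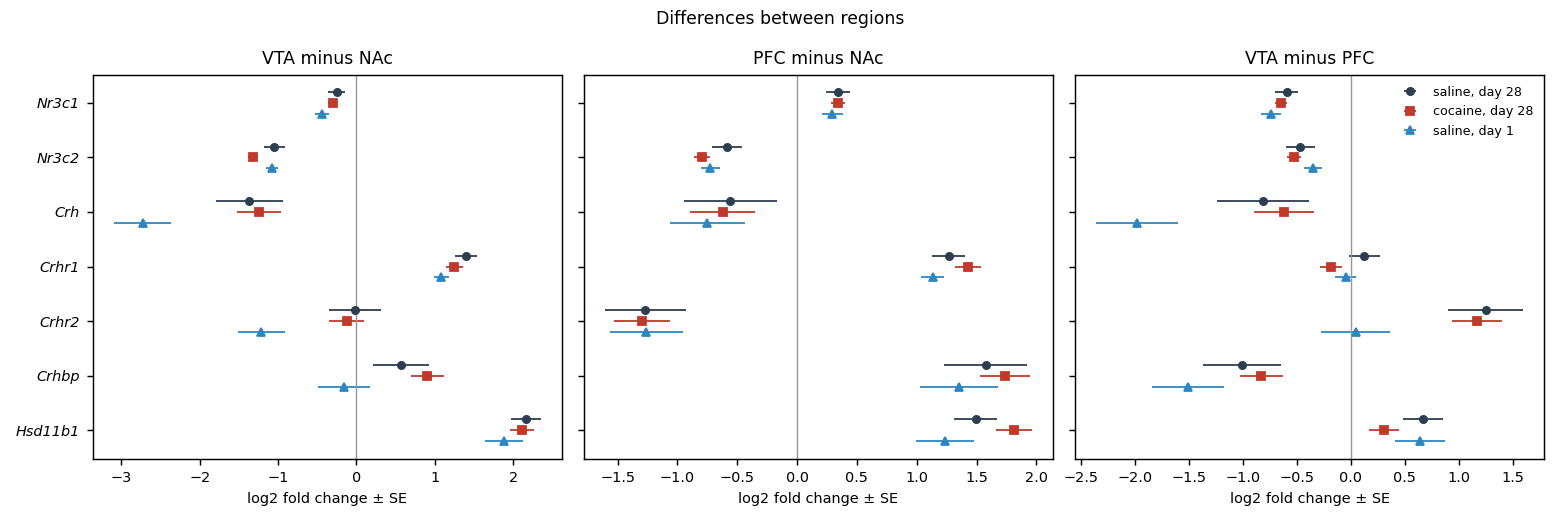
Log2 fold change ± SE (horizontal axis) of each of the 7 genes for VTA minus NAc, PFC minus NAc and VTA minus PFC, with circles for saline libraries at 28 days, squares for cocaine libraries at 28 days and triangles for saline libraries at 1 day. The PFC to NAc differences keep their sign in all 3 sets of libraries, while Crhr2 and Crhbp in the VTA shift between times (Crhr2 VTA minus NAc -0.02 at 28 days and -1.22 at 1 day).

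Other genes of the stress axis, from lists made for this report, were also compared between regions. Of 10 chaperones of steroid receptors, 6 were higher and 1 was lower in VTA than NAc, and the same counts held for PFC against NAc, where 62.5% and 40.7% of all genes passed. Fkbp5, a chaperone that lowers the receptor's affinity for hormone, was the lower one in both (log2 fold changes -0.97 and -0.77, adjusted p = 0.000119 and 0.00120, edgeR), while Fkbp4, its counterpart that helps the receptor reach the nucleus, was higher (0.83 and 0.31, adjusted p = 7.51e-08 and 0.00291, edgeR). Of 10 coregulators of nuclear receptors, 6 were lower and 1 higher in VTA than NAc, with Ncoa1 at -0.87 (adjusted p = 1.42e-07, edgeR). Only 1 of the 10 passed in PFC against NAc. Without VTA saline library 1 and PFC saline library 4, 3 passed, beside 47.3% of all genes. Without those libraries 7 coregulators were lower and 3 higher in VTA than NAc, where 66.6% of all genes passed. Their median log2 fold change was then -0.36. Of 14 genes of signaling downstream of CRH receptors, 7 were lower and 4 higher in VTA than NAc, and 2 were lower and 7 higher in PFC than NAc. Without VTA saline library 1 and PFC saline library 4, 5 were higher in VTA and 8 in PFC than NAc. In those fits 66.6% and 47.3% of all genes passed. Adcy5, the adenylyl cyclase typical of striatum, was lower in both (log2 fold changes -3.17 and -2.43, adjusted p = 1.12e-06 and 1.92e-05, edgeR). The median log2 fold changes of the chaperones, coregulators and signaling genes in VTA against NAc were 0.32, -0.47 and -0.26, against 0.03 over all genes tested.

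Of the smaller lists, 1 of 6 other peptides of the stress axis was tested and it was higher in VTA than in both other regions, Pomc, the precursor of corticotropin (log2 fold change 0.98 against NAc and 1.48 against PFC, adjusted p = 0.0136 and 0.000917, edgeR). VTA libraries 1 to 5 held 2.34, 1.57, 2.35, 5.83 and 7.01 RPKM of Pomc, and library 1 had the most hypothalamic markers. Without library 1 and PFC saline library 4 the differences were 1.12 and 1.59 (adjusted p = 0.00797 and 0.00116, edgeR). The source of the higher values in VTA libraries 4 and 5 was not tested. The shares of the lists below are to be read against the same 62.5% and 40.7% of all genes. Of 4 peptide receptors tested, 1 was higher and 2 were lower in VTA than NAc, and the vasopressin receptor Avpr1a had the largest difference (3.13, adjusted p = 3.23e-05, edgeR). Of 4 other steroid receptors, 1 was higher and 1 lower in VTA than NAc, and 2 were higher in PFC than NAc. Without VTA saline library 1 and PFC saline library 4, 3 were higher in PFC than NAc, where 47.3% of all genes then passed. Of 7 tested genes of steroid metabolism and transport, 3 were higher and 1 lower in VTA than NAc, with Srd5a1, which makes reduced neurosteroids, higher in VTA and PFC than NAc (0.80 and 0.69, adjusted p = 1.61e-05 and 0.000128, edgeR).

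The second comparison, cocaine against saline within each region and time, is the one the study was designed for. None of the 7 genes passed an adjusted p under 0.05 in any of the 6 comparisons, with edgeR for the count tables and limma for the VTA and PFC at 1 day. Cocaine and saline libraries overlapped for each of the 7 genes in every comparison. The share of all genes with such overlap is not given here, so the overlap is not a result about these genes in particular. Few genes passed at all. The share called was 0.0126% in the NAc at 1 day, 0.0665% in the VTA at 1 day and 0.00693% in the PFC at 1 day, and 0.0% in each region at 28 days. At 28 days 1102, 1942 and 925 genes had an unadjusted p under 0.05 with edgeR in NAc, VTA and PFC, and DESeq2 called 14, 74 and 2. There were 41 tests of a member, since Crhr2 fell below the filter in the PFC at 1 day, and the lowest adjusted p was 0.202. Of these, 4 had an unadjusted p under 0.05, a share of tests to be read against 4.01%, 15.7% and 3.78% of all genes in NAc, VTA and PFC at 1 day and 6.76%, 11.5% and 5.66% at 28 days: Crh and Crhr2 in the VTA at 1 day, Crhr1 in the NAc at 1 day and Crh in the PFC at 28 days. DESeq2, run on the 4 count tables, called none of the 7 genes either.

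The intervals say how large a change these libraries could have hidden. Of the 41 estimates, 36 had a 95% interval within 2-fold in either direction and 28 within 1.5-fold. Nr3c1 had narrow intervals throughout. Its 6 log2 fold changes lay between -0.07 and 0.05, and its widest interval, in the VTA at 28 days, ran from -0.34 to 0.20. The 5 intervals that went beyond 2-fold were all in the VTA, for Crh and Crhbp at both times and Crhr2 at 1 day.

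**Figure D4:**
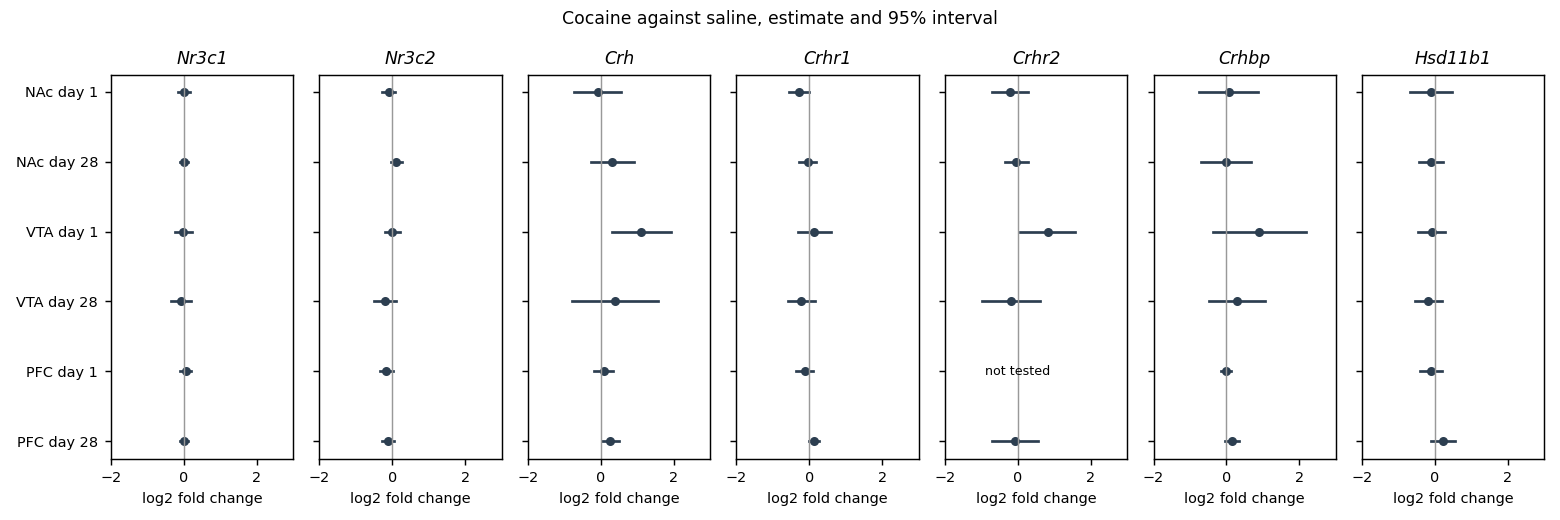
Log2 fold change of cocaine against saline (horizontal axis) with its 95% interval for each of the 7 genes in the 6 comparisons of region and day of abstinence (vertical axis), where Crhr2 in the PFC at 1 day was not tested. Intervals for Nr3c1 are narrow in all 6 comparisons, and those that go beyond 2-fold are in the VTA, where Crh at 1 day had the estimate farthest from 0 (1.11).

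In the VTA at 1 day Crh, Crhr2 and Crhbp had their largest positive estimates, and none passed the threshold. Crh was at 0.0641, 0.426 and 0.766 RPKM after saline and at 0.522, 0.821 and 1.73 RPKM after cocaine (lowest, median and highest of 6). The mean of the saline libraries was exceeded by all 6 cocaine libraries, and 4 were higher than every saline library. The log2 fold change was 1.11 (SE 0.371, 95% interval 0.31 to 1.92, adjusted p = 0.202, limma). These levels rest on 2 to 24 reads per saline library and 20 to 54 per cocaine library, and with the reads recovered from the RPKM steps edgeR gave 1.15 (adjusted p = 0.185). Without the cocaine library that held 595 RPKM of hypothalamic markers, the log2 fold change of Crh was 1.12 (adjusted p = 0.210, limma).

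Crhr2 in the VTA at 1 day was at 0.0868, 0.365 and 0.605 RPKM after saline and at 0.299, 0.750 and 1.10 RPKM after cocaine, a log2 fold change of 0.81 (SE 0.347, adjusted p = 0.284, limma). Crhbp was at 1.68, 7.01 and 8.47 RPKM after saline and at 1.59, 13.1 and 18.7 RPKM after cocaine, a log2 fold change of 0.90 (SE 0.593, 95% interval -0.38 to 2.18, adjusted p = 0.494, limma). The lowest cocaine library was the one with hypothalamic markers, and without it the Crhbp estimate was 1.40 (adjusted p = 0.159, limma). In this comparison 15.7% of all genes had an unadjusted p under 0.05, against 2 of 7 members. Markers of other cells also differed between these groups: dopamine neuron markers summed to 650 to 1531 RPKM after cocaine and 1083 to 2472 after saline, fibroblast markers to 38.2 to 248 and 13.4 to 72.6, and microglia markers to 98.9 to 136 and 148 to 186, without overlap. The part of these differences in the CRH values was not tested.

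Crhr1 did not share this direction throughout, with a median of 7.49 RPKM after cocaine and 7.97 RPKM after saline. Its log2 fold change was 0.14 (SE 0.205), and -0.04 without the library with hypothalamic markers. Nr3c1, Nr3c2 and Hsd11b1 in the VTA at 1 day gave log2 fold changes of -0.01, 0.01 and -0.09. At 28 days the VTA estimates were 0.39 for Crh (SE 0.544, adjusted p = 0.763, edgeR), -0.19 for Crhr2 (SE 0.370, adjusted p = 0.837, edgeR) and 0.30 for Crhbp (SE 0.353, adjusted p = 0.712, edgeR). Without saline library 1, which held the most hypothalamic markers, the Crh estimate was 1.18 (adjusted p = 0.175, edgeR), and it was as low as 0.13 without saline library 5. Crh after cocaine at 28 days was at 0.811, 1.41 and 2.61 RPKM (lowest, median and highest), within the range of the saline libraries. Nr3c2 was at 4.33, 5.11 and 5.34 RPKM after cocaine, all 6 below the saline mean of 5.68 (log2 fold change -0.19, SE 0.137, adjusted p = 0.543, edgeR). The lowest saline value, 3.61 RPKM, was that of library 1, and the 4 other saline libraries, at 5.64 to 7.23 RPKM, lay above every cocaine library. Without library 1 the log2 fold change of Nr3c2 was -0.31 (SE 0.077, adjusted p = 0.106, edgeR), and without saline library 5 it was -0.08. Without library 1 the estimate of Nr3c1 went from -0.07 to -0.17 (adjusted p = 0.285, edgeR) and that of Crhr2 from -0.19 to -0.07 (adjusted p = 0.938, edgeR). These fits left out a saline library only. Cocaine libraries 1, 2 and 6, with 402.5, 690.5 and 102.4 RPKM of hypothalamic markers, stayed in. At 28 days the median of Nr3c2 was 4.71 RPKM in the 4 VTA libraries with 100 RPKM or more of these markers. These were saline library 1 and cocaine libraries 1, 2 and 6. In the others the median was 5.64 RPKM. At 1 day the single such library had the highest Nr3c2 (8.56 RPKM, against at most 7.45 in the others). Nr3c2 at 28 days was at 3.61 to 5.34 RPKM in the 5 libraries with the fewest serotonin neuron markers. It was at 5.13 to 7.23 RPKM in the 5 with the most, 1 of them from a cocaine mouse. The part of this in the Nr3c2 estimate was not tested. Whether the VTA effects differed between 1 and 28 days was not tested. That test was planned only for the NAc, where counts were deposited at both times.

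In the NAc, Crhr1 at 1 day was at 2.92, 3.58 and 3.96 RPKM after saline and at 2.24, 2.75 and 3.83 RPKM after cocaine, with 4 of 6 cocaine libraries below every saline library. Its log2 fold change was -0.28 (SE 0.128, 95% interval -0.55 to -0.00133, adjusted p = 1.00, edgeR). At 28 days the estimate for Crhr1 was -0.04 (SE 0.110). Crhr2 at 1 day was at 0.720, 0.813 and 1.04 RPKM after saline and at 0.504, 0.581 and 1.48 RPKM after cocaine. Of the cocaine libraries 5 lay below every saline library and library 5 lay above them all, so that the log2 fold change was -0.21 (SE 0.226, adjusted p = 1.00, edgeR) with it and -0.51 without it (adjusted p = 0.634, edgeR). Nr3c2 was at 11.8, 12.9 and 13.4 RPKM after saline and at 9.17, 12.2 and 13.1 RPKM after cocaine at 1 day (log2 fold change -0.10, SE 0.085). At 28 days it was at 9.97, 11.1 and 11.7 RPKM after saline and at 10.1, 12.1 and 13.3 RPKM after cocaine, with 4 of 6 cocaine libraries above every saline library (log2 fold change 0.11, SE 0.069, adjusted p = 0.812, edgeR).

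The NAc tables allowed a test of whether the cocaine effect changed with abstinence. Taken as the effect at 1 day minus that at 28 days over the 24 NAc libraries, none of the 7 genes passed, with 0.0181% of all genes called (3 of 16612). Nr3c2 had the lowest unadjusted p, with a difference of -0.22 on the log2 scale (SE 0.110, 95% interval -0.44 to 0.01, adjusted p = 0.965, edgeR). The differences were -0.25 for Crhr1 (SE 0.173) and -0.43 for Crh (SE 0.431), both with an adjusted p of 0.999 in edgeR.

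In the PFC, Crh at 28 days was at 1.54, 1.88 and 2.13 RPKM after saline and at 2.01, 2.09 and 2.46 RPKM after cocaine. None of the 6 cocaine values was below the saline mean of 1.84 RPKM, and 3 lay above every saline library. The log2 fold change was 0.26 (SE 0.111, 95% interval 0.02 to 0.49, adjusted p = 0.842, edgeR), and it was 0.21 to 0.30 with any 1 library left out. Crhr1 in the same comparison was at 8.81, 10.3 and 11.4 RPKM after saline and at 10.7, 11.0 and 12.0 RPKM after cocaine (log2 fold change 0.12, SE 0.066, adjusted p = 0.842, edgeR). The lowest saline value was that of the library with medium spiny neuron markers, and without it the estimate for Crhr1 was 0.085 (adjusted p = 0.967, edgeR). Crhbp went from 0.16 to 0.085 and Nr3c2 from -0.11 to -0.05 on leaving out the same library. At 1 day the PFC estimates of Crh and Crhr1 were 0.08 (SE 0.123) and -0.12 (SE 0.109), and Nr3c2 was lower than the saline mean in all 6 cocaine libraries (5.67, 6.74 and 7.47 RPKM after cocaine, 6.25, 7.40 and 8.72 RPKM after saline, log2 fold change -0.16, SE 0.087, adjusted p = 0.913, limma).

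A list of 20 genes known to be induced by glucocorticoids was compared beside the receptors. Neither the hormone nor the activity of its receptors was measured in these libraries. In the NAc at 1 day, 2 of 20 rose with cocaine, the lipid droplet gene Plin4 (log2 fold change 2.57, SE 0.340, adjusted p = 0.0199, edgeR) and the hypoxia-related factor Hif3a (1.08, SE 0.129, adjusted p = 0.0122, edgeR). In the VTA and the PFC at 1 day only Plin4 of the 20 passed (2.14 and 2.17, adjusted p = 0.0266 and 0.00233, limma). The estimates of 18, 18 and 19 of the 20 genes were above 0 in NAc, VTA and PFC at 1 day, with medians of 0.22, 0.60 and 0.27 against -0.0012, 0.03 and -0.01 over all genes tested. At 28 days none passed, 3, 2 and 6 were above 0, and the medians were -0.10, -0.34 and -0.10. The VTA libraries at 1 day also differed in markers of other cells. Muscle markers summed to 23.1 to 182 RPKM after cocaine and 8.19 to 73.3 after saline, beside the fibroblast and microglia markers given above, and their part in the median of 0.60 was not tested. Without the cocaine library with hypothalamic markers, that median was 0.48, with 18 of 20 above 0 and 1 passing. In the NAc the change of effect with abstinence passed for Plin4 and Hif3a. The receptors Nr3c1 and Nr3c2 themselves had estimates between -0.16 and 0.05 at 1 day in the 3 regions. The genes of the list are induced together and are not independent of each other, and earlier results of these libraries were known when the list was made.

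Fkbp5, which belongs to both the induced genes and the chaperones, and Sgk1, a kinase induced by corticosteroids, were named after their values were seen. Fkbp5 at 1 day had log2 fold changes of 0.25 in the NAc, 1.02 in the VTA and 0.48 in the PFC, none of which passed (adjusted p = 0.990 by edgeR, and 0.184 and 0.200 by limma). Sgk1 had 0.53, 1.11 and 0.72 (adjusted p = 0.990, 0.185 and 0.913, by the same tests, edgeR and limma). At 28 days the values of Fkbp5 were -0.02, -0.25 and -0.17. No gene passed with cocaine among the other peptides, peptide receptors, other steroid receptors, steroid metabolism genes, chaperones, coregulators and signaling genes in any of the 6 comparisons.

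Levels of some of the genes varied with the sums of markers of neighbouring regions. In the 6 NAc libraries at 1 day with the lowest cortical markers (5.24 to 87.4 RPKM), Crhbp was at 2.64 to 6.09 RPKM, and in the 6 with the highest (99.6 to 320 RPKM) it was at 4.88 to 10.7 RPKM. At 28 days the corresponding ranges were 2.69 to 3.88 and 3.02 to 8.30 RPKM, and the sets overlapped at both times. Hsd11b1 at 1 day was at 2.06 to 3.30 RPKM in the lower 6 and at 2.77 to 5.46 RPKM in the upper 6, which overlapped. It was at 1.87 to 2.51 RPKM in the lower 6 and at 2.58 to 3.29 RPKM in the upper 6 at 28 days, without overlap. Both genes were higher in PFC than in NAc by the contrast above, and the part of cortical tissue in these levels was not tested. The cocaine and saline libraries were split 3 and 3 between these sets at 1 day, and 2 of 6 libraries in the upper set at 28 days were from cocaine mice. With the log2 sum of cortical markers as a covariate, the cocaine estimate for Crhbp in the NAc was 0.035 at 1 day and 0.39 at 28 days (SE 0.151 and 0.150, adjusted p = 1.00 and 0.369, edgeR), against 0.07 and -0.0016 without it (SE 0.377 and 0.321).

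In the VTA, Crh varied with hypothalamic markers at 28 days. In the 4 libraries with 100 RPKM or more of these markers, 3 from cocaine mice and 1 from saline mice, Crh was at 1.503 to 3.157 RPKM. In the 7 other libraries it was at 0.229 to 1.32 RPKM, with no overlap. Among these 7 the cocaine estimate for Crh was 0.56 (SE 0.458, adjusted p = 0.803, edgeR). At 1 day the single library above 100 RPKM had 0.853 RPKM of Crh, within the range of the other 11, and 16.1 RPKM of Crhr1, above their highest of 11.3. At 28 days Crh was at 0.876 to 3.16 RPKM in the 5 VTA libraries with the fewest serotonin neuron markers. It was at 0.229 to 1.04 RPKM in the 5 with the most. Nr3c1 in the same sets was at 9.13 to 13.55 and at 12.54 to 15.95 RPKM, and both genes' ranges overlapped. The part of this in the VTA values was not tested.

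**Figure D5:**
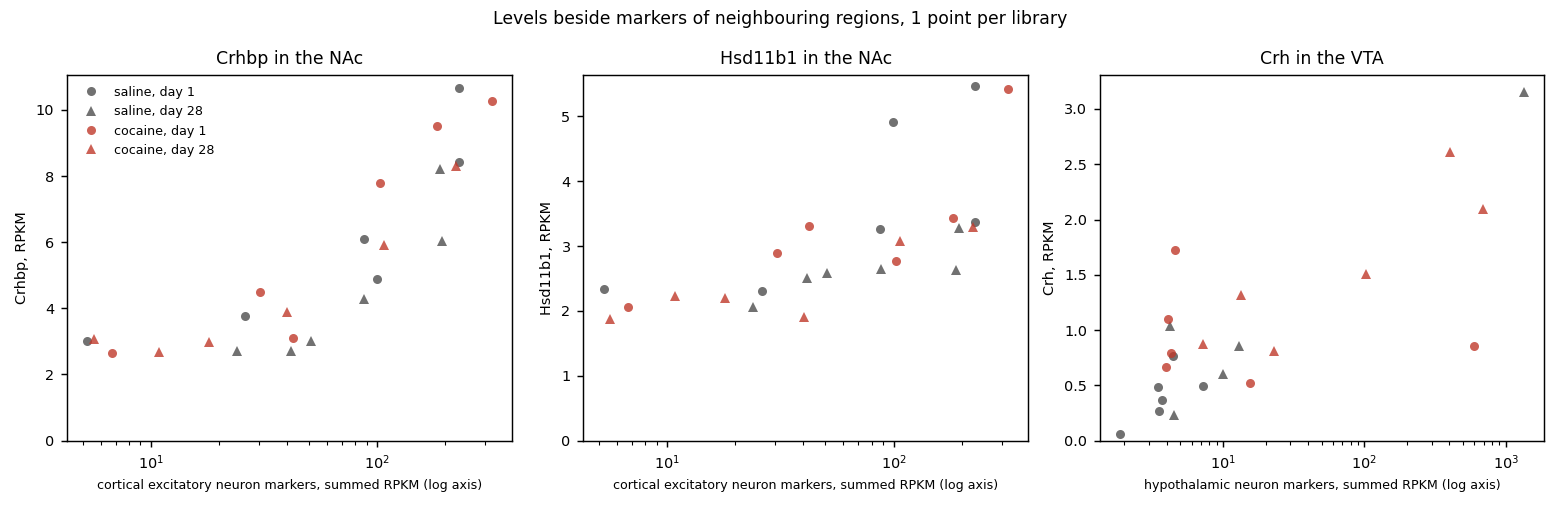
Crhbp and Hsd11b1 in the NAc against the summed RPKM of cortical excitatory neuron markers, and Crh in the VTA against that of hypothalamic neuron markers (horizontal log axes, vertical axes in RPKM from 0), with 1 point per library, circles for 1 day, triangles for 28 days, gray for saline and red for cocaine. Crhbp reaches 10.7 RPKM in NAc libraries rich in cortical markers, and the 4 VTA libraries at 28 days with 100 RPKM or more of hypothalamic markers have the highest Crh of that day.

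The genes most like each member over the 35 libraries at 28 days were found by Pearson's r of log2(CPM + 0.5), among 14649 genes with a mean of at least 1 CPM. Libraries of a region share its cell types, so these values describe regional patterns and carry no test. For Nr3c2 the closest were Gucy1a3 (r = 0.98), Kctd12 and Diap2 (r = 0.97 each), and genes among the closest to Nr3c1 were Sort1 (0.95) and Fmr1 (0.94). Hsd11b1 was closest to Acss2, Dcbld2 and Parva (0.96 each), and Crhr1 to Pitpna (0.96), Cav2 and Tbc1d9 (0.95 each). Crhbp was closest to Bhlhe22, Gfra2 and Prdm8 (0.92 each), genes of cortical neurons in the case of Bhlhe22. Crh and Crhr2, which had the fewest reads, had lower values, with Serp2 and Fancl (0.87 each) and Mrp63 (0.85) for Crh, and, among the closest, Hap1 (0.83) and Pi16 (0.82) for Crhr2. Among the members themselves, Hsd11b1 and Crhr1 were alike (r = 0.88), and Nr3c2 ran against Hsd11b1 (-0.89) and Crhr1 (-0.78).

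After subtraction of each group's mean, which removes region and treatment, other genes came first. Crhbp was then closest to Vip (r = 0.89), the peptide of a class of cortical interneurons, followed by Gfra2 (0.85) and Ipcef1 (0.84). Libraries of a group still differed in the tissue they held, with cortical markers at 5.62 to 224 RPKM in the NAc at 28 days. The part of this in the within-group values was not tested. Hsd11b1 was closest to Apln and Dio2 (0.80 each) and Lynx1 (0.75). Nr3c1 was closest to Bmpr1a (0.87), Tjp1 and Zfp91 (0.85 each), and Nr3c2 to Asxl2 (0.90), Gm10524 (0.89) and Sbf2 (0.88). Within groups Nr3c1 and Nr3c2 varied together (r = 0.66), and Crh ran against both (-0.76 and -0.59). Crh has the shortest transcript length of the 7 genes used for RPKM (1322 bases) and Nr3c1 and Nr3c2 the longest (6445 and 5925 bases), and the part of transcript length in these values was not tested. Crhr1 had no close partner within groups (highest r = 0.66, for Dgat1 and Ankrd29). The closest to Crh within groups were 6330403K07Rik (0.86), B630019K06Rik and Itfg2 (0.84 each), and to Crhr2 they were Trpc7 (0.77), Phf1 (0.76) and Tctn2 (0.71).

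Levels at 1 and 28 days came from separate tables and are given side by side only. Nr3c1 was at 16.2 to 19.8 RPKM in the 12 NAc libraries at 1 day and at 13.3 to 15.5 RPKM in the 12 at 28 days. In the PFC it was at 19.7 to 26.0 and 16.3 to 18.9 RPKM. Crhr1 in the PFC was at 5.04 to 9.18 RPKM at 1 day and at 8.81 to 12.0 RPKM at 28 days, ranges that overlap. Time and table are the same split, so abstinence, age and preparation cannot be told apart.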

How the data were processed

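RNA-seq was analysed from 6 tables, 1 per region and time. The authors aligned reads to mm9 with STAR 2.4.1d and deposited raw counts per gene for the NAc at both times and for the VTA and PFC at 28 days. The other tables, VTA and PFC at 1 day, were deposited as RPKM. Columns of the authors' own fold changes and p-values were not used, nor were 30 columns that match no sample. At 28 days column names give the group but not the sample, so library numbers there are names only. The 7 genes and all gene lists were chosen with earlier results of these data known.

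Count tables were tested with edgeR 4.0.16 (TMM, filterByExpr with a minimum count of 10, quasi-likelihood test), RPKM tables with limma 3.58.1 (trend) on log2(RPKM + 0.1), keeping genes whose mean RPKM reached 0.5. Fold changes of low genes are understated on this scale. Intervals are 95% intervals from the fits. P-values were adjusted by Benjamini-Hochberg over all genes tested, and a gene was called at an adjusted p under 0.05. Whole reads were recovered from the RPKM steps for 100% of values within 0.0001 reads and tested with edgeR as an alternative. Region contrasts among saline libraries at 1 day used these recovered reads for the VTA and PFC. RPKM of the count tables used the lengths recovered from the authors' RPKM and each library's counted total. DESeq2 1.42.0, other filters and scalings, a replicate block and leaving out each library were also tried, and all fits were tested on simulated data. No replicate pair was identical. Text names all 7 genes, at most 4 called genes per list with the largest change, and the 3 genes most like each member, by rule, apart from some that are not reported here.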

Additional observations from a re-analysis of the deposited data

Results flagged for a closer look

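Of 84 groups of a gene, region, time and treatment, 9 held a library farther from the others than Dixon's test allows at 95%. Chance gives about 1 in 20 at this level for independent groups of normal values. The test used RPKM without a log scale, and groups of different genes share libraries, so the count cannot be set against that rate. All 9 libraries were the highest of their group. For Nr3c2 they were cocaine library 6 of the VTA at 1 day (8.56 RPKM, the library with hypothalamic and choroid plexus markers), saline library 4 of the VTA at 1 day (7.45 RPKM) and cocaine library 1 of the PFC at 28 days (7.68 RPKM). For Crh it was saline library 1 of the VTA at 28 days (3.16 RPKM), which had the most hypothalamic markers of all libraries. For Crhr2 they were cocaine library 5 of the NAc at 1 day (1.48 RPKM) and cocaine library 2 of the VTA at 28 days (1.66 RPKM, with 691 RPKM of hypothalamic markers). For Hsd11b1 they were saline library 6 of the PFC at 1 day (11.6 RPKM), cocaine library 3 of the VTA at 1 day (15.1 RPKM) and saline library 5 of the VTA at 28 days (18.5 RPKM).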

How the results depend on the processing

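None of the 41 cocaine estimates passed the threshold under any setting tried, with a lowest adjusted p of 0.106 over 485 values with 1 library left out and 0.137 over 184 values with other settings. Counts of genes called moved more. With DESeq2 they were 21 in the NAc at 1 day, 14 in the NAc at 28 days, 74 in the VTA at 28 days, 2 in the PFC at 28 days and 10 for the change with abstinence, against 2, 0, 0, 0 and 3. In the VTA at 1 day 10 became 55 with edgeR on recovered reads and 60 with the replicate block. Chosen after seeing the data, limma without trend gave 28 there, leaving out the library rich in hypothalamic markers gave 65, and the cortical covariate gave 5 in the NAc at 1 day. The cause was not tested. With 1 library left out the counts were 0 to 2 (NAc, both times), 0 to 65 (VTA, 1 day), 0 to 0 (VTA and PFC, 28 days), 1 to 2 (PFC, 1 day) and 1 to 5 (change with abstinence).

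Same-numbered libraries at 1 day did not deviate together throughout (r from -0.562 to 0.699), so numbers were not taken as pairs. The block turned Crh in the NAc at 1 day to 0.019 and changed no call of a member. Columns at 28 days carry no numbers, so no block was fitted there.

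Signs of small estimates turned elsewhere. At 28 days in the NAc, Crhbp was 0.001 without a filter and 0.393 with the covariate, and Hsd11b1 0.048 with the covariate. In the VTA at 1 day Nr3c2 was -0.033 on recovered reads and -0.079 without the hypothalamic library, and Crhr1 -0.038 without it. Crhbp in the PFC at 1 day was 0.009 on recovered reads, and the change with abstinence of Hsd11b1 was 0.001 with DESeq2. Between regions, Crhbp for VTA minus NAc was -0.154 in saline libraries at 1 day, and Crhr1 for VTA minus PFC was -0.181 in cocaine libraries and -0.048 in saline libraries at 1 day.

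With 1 library left out, ranges that crossed 0 were, in the NAc at 1 day, Nr3c1 -0.031 to 0.055, Crh -0.233 to 0.200, Crhbp -0.136 to 0.301 and Hsd11b1 -0.314 to 0.059. In the NAc at 28 days they were Nr3c1 -0.020 to 0.036, Crhr1 -0.108 to 0.035, Crhr2 -0.121 to 0.027 and Crhbp -0.268 to 0.240. In the VTA at 1 day they were Nr3c1 -0.061 to 0.051, Nr3c2 -0.079 to 0.051, Crhr1 -0.038 to 0.239 and Hsd11b1 -0.172 to 0.059, and at 28 days Nr3c1 -0.166 to 0.021 and Hsd11b1 -0.246 to 0.011. In the PFC they were Crhbp -0.047 to 0.013 at 1 day, and Nr3c1 -0.015 to 0.027 and Crhr2 -0.215 to 0.122 at 28 days. For the change with abstinence they were Nr3c1 -0.048 to 0.032, Crhbp -0.183 to 0.322 and Hsd11b1 -0.224 to 0.157, and for VTA minus NAc Crhr2 -0.180 to 0.197. Region counts stayed within 1.5 times. Few reads limit Crh and Crhr2.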
